A study of Mus musculus with 6 samples.

Results

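Clock output genes are taken here as genes that the circadian clock drives and that are listed apart from its core loop. Some of them also act back on that loop as repressors. The 9 genes described here were taken by name from the deposited count table of 54532 genes. They are the PAR bZIP factors *Dbp*, *Tef* and *Hlf*, their repressor counterpart *Nfil3*, the repressors *Bhlhe40*, *Bhlhe41* and *Ciart*, the cell cycle kinase gene *Wee1* and the deubiquitinase gene *Usp2*. Each of the 9 symbols matched 1 row of the table, and all 9 passed the filter on low counts (0.5 CPM or more in 1 library or more, CPM being counts scaled to a common library size). Whole lungs were perfused and sequenced from untreated mice at 2 months of age, as 3 wild-type (WT) libraries and 3 libraries of the ISM1 knockout line (ISM1-/-). The line carries a knockout of *Ism1*, the gene of the secreted protein isthmin-1, and the comparison asks how lungs of this line differ at baseline. WT C57BL/6J animals came from a supplier, whereas ISM1-/- animals were made in-house on that same background, so the effects of genotype and of animal source cannot be told apart. The hour of the day at which each lung was collected is not given in the sources used here.

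Total counts ranged from 37606133 to 42345042 per library. The targeted gene *Ism1* had 82.1, 77.4 and 76.9 CPM in the WT libraries and 65.4, 66.0 and 75.6 CPM in the libraries labelled ISM1-/-, so the labelled libraries kept 87.6% of the WT level (log2 fold change −0.19, standard error, SE, 0.0709; adjusted p = 0.217 in the quasi-likelihood test of edgeR). The genotype of each library therefore rests on its label. All 10 markers of lung epithelium, endothelium, stroma and leukocytes were present in all 6 libraries, with 3 of them called lower (*Scgb1a1*, *Foxj1* and *Col1a1*) and 1 higher (*Ptprc*) in the libraries labelled ISM1-/-. Of all genes tested, 3.34% were called lower and 1.38% higher, at an adjusted p under 0.1 in the same edgeR test. WT replicate 1 stood apart through heart muscle genes, with a summed 1800 CPM over 10 cardiomyocyte markers against 603 and 713 CPM in the other WT libraries and 325 to 646 CPM in the libraries labelled ISM1-/-. The replicate 3 library labelled ISM1-/- stood apart in the sum of glucocorticoid-responsive genes, with 1270 CPM over 10 genes against 701 to 941 CPM in the other 5 libraries. Much of this sum was *Zbtb16*, at 285 CPM there against 13.1 to 66.6 CPM in the other libraries. *Fkbp5*, *Tsc22d3*, *Sgk1* and *Klf9* were also highest there, and *Per1*, *Dusp1*, *Cdkn1a*, *Mt1* and *Mt2* were not. Values that rest on these libraries are given with and without them.

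The molecular clock is a feedback loop of transcription. The factors CLOCK or NPAS2 pair with BMAL1 (gene *Arntl*) and bind E-box elements, where they switch on *Per*, *Cry* and *Nr1d* genes as well as output genes such as *Dbp*. PER and CRY proteins then block this pair, and the NR1D proteins (REV-ERBs) repress *Arntl*, *Npas2* and *Nfil3* through ROR elements. DBP, TEF and HLF activate genes through an element called the D-box, and NFIL3 binds the same element as a repressor, with its RNA peaking at the opposite time of day to that of *Dbp*. In the lung the clock is known to time the inflammatory response of the airway.

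Promoter sequence of RefSeq, on the GRCm38.p6 build that matches the GRCm38 coordinates of the count table, was at hand for 7 of the 9 genes (8 start sites, of which *Tef* has 2). *Bhlhe40* and *Wee1* had no entry. The 250 bases before each start were searched on both strands for the E-box CACGTG, for the D-box letters TTATGTAA and TTACGTAA, and for TAGGTCA, the core of a ROR element. The E-box letters were found in *Ciart*, *Bhlhe41* and both windows of *Tef*, which is 3 of 7 genes, against 6.02% of all 32851 windows. That share counts windows, whereas *Tef* had 2 windows in which to match. The 8 windows were 60.4% to 81.6% G or C, against a median of 52.4% over all windows. The shares were not matched for this, so the contrast is not a test of the clock genes. TAGGTCA was found in *Nfil3* only among the 7 genes, against 2.23% of all windows, and neither D-box form was found in any of them (0.819% and 0.113% of all windows). The windows of *Dbp*, called higher, *Usp2*, called lower, and *Hlf*, not called, held none of these motifs. *Bhlhe41* holds the E-box and was not called. The windows of *Ciart* and *Tef* are shown because both genes were called higher and both hold the E-box. *Nfil3* is shown because it was called lower and holds the other motif. Whether the motifs relate to the calls was not tested. Capitals mark the matched letters, and every sequence reads 5′ to 3′ on the strand of its gene. The *Ciart* window (chr3:95882229-95882478, reverse strand) holds 3 E-boxes, 116, 58 and 44 bases before the start, and 23 of its 250 bases lie in an exon of a longer GENCODE transcript.
Ciart: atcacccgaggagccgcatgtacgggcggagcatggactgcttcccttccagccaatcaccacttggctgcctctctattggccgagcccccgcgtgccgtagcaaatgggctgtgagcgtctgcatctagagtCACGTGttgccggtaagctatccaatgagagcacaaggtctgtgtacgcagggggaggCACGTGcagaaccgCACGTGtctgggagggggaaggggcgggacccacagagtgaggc
The window before the second start of *Tef* (chr15:81811164-81811413, forward strand), which no annotated exon covers, holds 1 E-box, 138 bases before the start.
Tef, second start: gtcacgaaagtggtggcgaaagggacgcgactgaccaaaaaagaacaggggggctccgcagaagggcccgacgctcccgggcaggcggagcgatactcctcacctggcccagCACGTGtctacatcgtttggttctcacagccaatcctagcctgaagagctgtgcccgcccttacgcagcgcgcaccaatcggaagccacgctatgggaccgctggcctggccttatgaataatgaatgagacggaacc
The other 3 matches lie in windows that annotated exons cover in part or in whole. Those of *Tef* and *Nfil3* lie inside the span that the count table gives their gene, and that of *Bhlhe41* lies outside it. They are shown as runs of 30 bases, for the first start of *Tef* (chr15:81802534-81802563, forward strand), for *Bhlhe41* (chr6:145865556-145865585, reverse strand) and for *Nfil3* (chr13:52981040-52981069, reverse strand). In *Nfil3*, TGACCTA is TAGGTCA read on the other strand.
Tef, first start: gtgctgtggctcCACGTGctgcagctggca
Bhlhe41: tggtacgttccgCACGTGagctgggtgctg
Nfil3: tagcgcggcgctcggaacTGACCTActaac
A match is a description of the letters, not evidence of binding, and elements outside these windows, as in introns, were not searched.

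Levels of different genes were compared on the deposited FPKM scale, in which the authors divided counts by library total and gene length. On this scale *Tef* had the highest level in WT lungs, at 178 ± 6.98 FPKM (SD, n = 3). It was followed by *Dbp* at 63.4 ± 11.4, *Bhlhe40* at 34.1 ± 5.78, *Ciart* at 15.6 ± 1.94 and *Hlf* at 13.2 ± 1.68 FPKM. *Usp2* was at 8.61 ± 0.436, *Bhlhe41* at 7.63 ± 1.72, *Wee1* at 3.55 ± 0.287 and *Nfil3* at 3.10 ± 0.232 FPKM. The WT ranges of *Ciart* and *Hlf* overlapped, as did those of *Usp2* and *Bhlhe41*, so these neighbours did not differ beyond their spread. The order below *Hlf* and the lead of *Tef* over *Dbp* depend on the length used. The FPKM of *Tef* implies a length of 1418 bases, whereas the gene length column of the same table gives 7867, and with that column *Tef* would be at 32.1 FPKM, next to *Dbp* at 28.8.

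**Figure D1:**
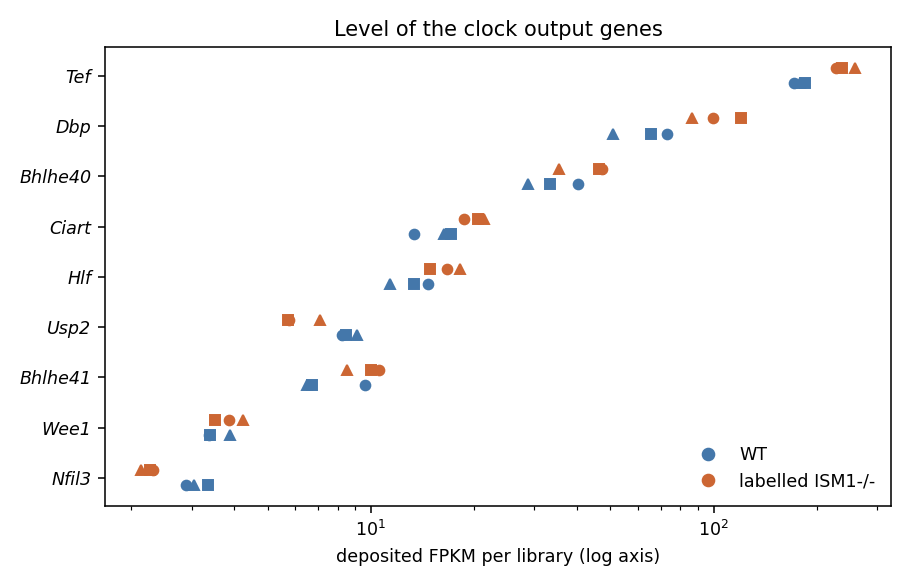
Deposited FPKM of the 9 clock output genes in each library (log axis), with WT in blue, libraries labelled ISM1-/- in orange, and replicates 1, 2 and 3 as circle, square and triangle. *Tef* lay highest, from 171 to 185 FPKM in WT, and *Nfil3* lowest, from 2.90 to 3.35 FPKM in WT.

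The comparison of genotypes asked whether the RNA of these genes differed in lungs labelled ISM1-/-. A difference was called for 5 of the 9 genes. *Dbp*, *Tef* and *Ciart* were higher, by 1.62-fold, 1.36-fold and 1.30-fold, and *Nfil3* and *Usp2* were lower, at 72.6% and 72.5% of the WT level. These 5 had an adjusted p under 0.1 by edgeR on TMM-normalized counts, which is what a call means here, and 4.72% of all 18689 genes tested were called (1.38% higher, 3.34% lower). DESeq2 called 7 of the 9, adding *Hlf* and *Bhlhe40*, against 6.88% of all genes. None of the 9 genes also reached the 2-fold minimum, which 0.567% of all genes did, and 8 of the 9 had an unadjusted p under 0.05, against 15.8% of all genes. In 6 of the 9 genes the genotypes did not overlap, against 21.6% of all genes; 4 of these lay higher in the libraries labelled ISM1-/- (9.33% of all genes did) and 2 lower (12.3%). The median log2 fold change of the 9 genes was 0.34, beside 0.004 over all genes, with a range from −0.46 to 0.69. The 9 genes were chosen with earlier results of these data known, so their excess over these shares is a description, not a test. In bulk lung RNA, a change in the RNA per cell cannot be told apart from a change in the number of cells that express a gene. With the hour of collection not given, a difference of hour between the groups cannot be told apart from one of genotype.

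**Figure D2:**
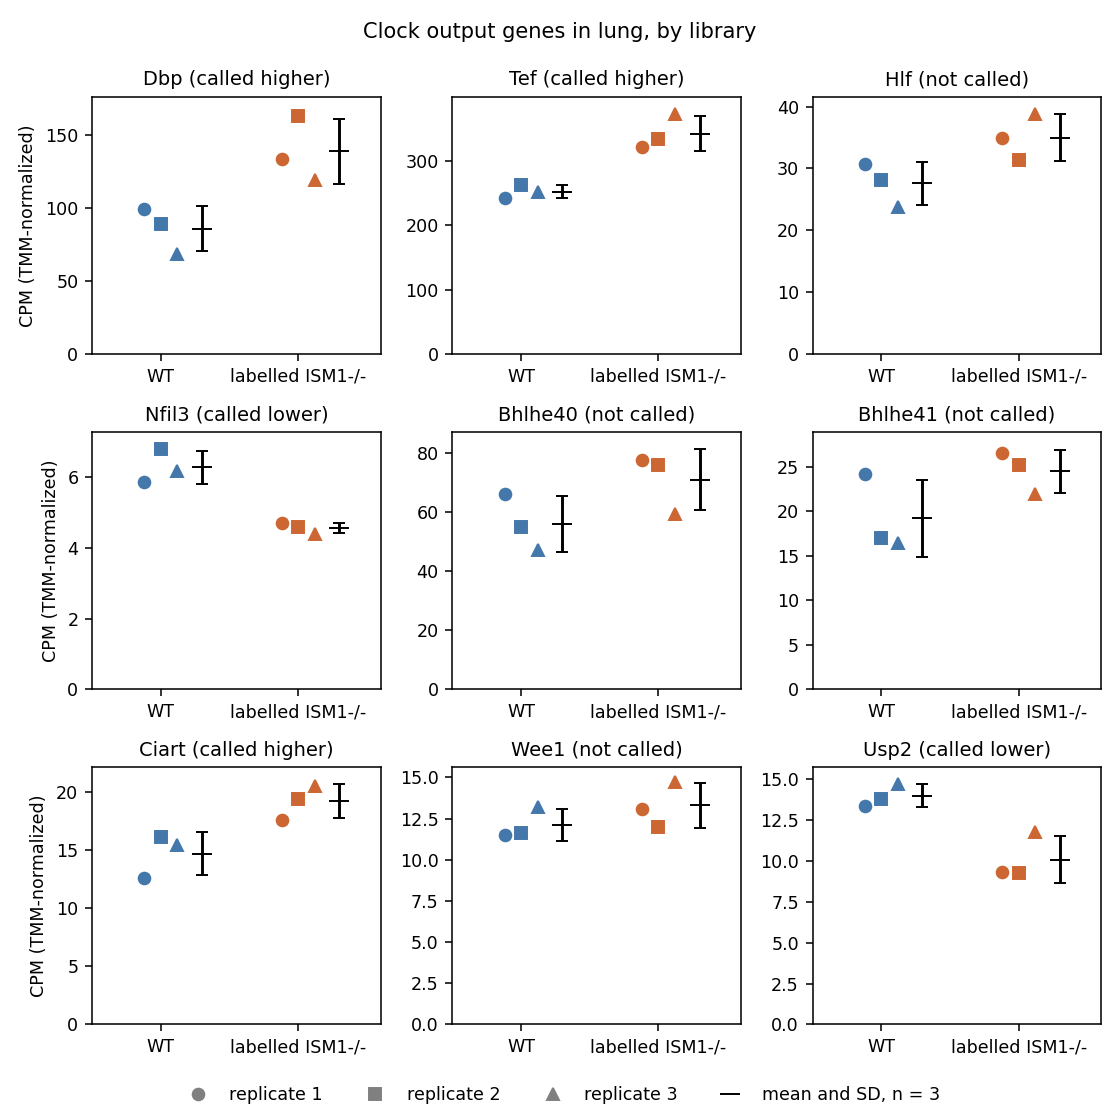
TMM-normalized CPM of each clock output gene in each library, by genotype, with marker shape for the replicate and the mean and SD (n = 3) beside the points; each vertical axis starts at 0. The genotypes are apart in *Dbp*, *Tef*, *Hlf*, *Nfil3*, *Ciart* and *Usp2* and overlap in *Bhlhe40*, *Bhlhe41* and *Wee1*.

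*Dbp* (ENSMUSG00000059824, chromosome 7, 45705088 to 45710203, forward strand) encodes the D-site albumin promoter binding protein, the founding member of the PAR bZIP factors. It had 99.2, 89.3 and 69.0 CPM in the WT libraries and 134, 163 and 119 CPM in the libraries labelled ISM1-/-. Every labelled library lay above every WT library, and the spread within each genotype was wide, with WT replicate 3 lowest and labelled replicate 2 highest. With a log2 fold change of 0.69 (SE 0.139) and an edgeR adjusted p of 0.0366, this was the largest difference of the 9 genes. The call was lost, at an adjusted p of 0.118, 0.104 and 0.128, without WT replicate 2, labelled replicate 1 or labelled replicate 2. The 3′ end of *Dbp* overlaps *Sphk2*, a sphingosine kinase gene on the other strand with a mean of 1850 counts, and the sources used here do not say whether reads were counted by strand, but *Sphk2* itself had a log2 fold change of −0.13 (edgeR adjusted p = 0.446).

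*Tef* (ENSMUSG00000022389, chromosome 15, 81802421 to 81826863, forward strand) encodes thyrotroph embryonic factor, the PAR bZIP factor with the highest CPM and deposited FPKM in these lungs. It had 242, 262 and 251 CPM in WT and 321, 333 and 373 CPM in the libraries labelled ISM1-/-. The groups were well apart, since the WT libraries differed little among themselves and the lowest labelled library lay above all of them. On the log2 scale *Tef* rose by 0.44 (SE 0.0684, edgeR adjusted p = 0.0163), and it alone of the 9 stayed called whichever of the 6 libraries was left out, with adjusted p from 0.00996 to 0.0776. Its counts cover both start sites together.

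*Hlf* (ENSMUSG00000003949, chromosome 11, 90336536 to 90390895, reverse strand) encodes hepatic leukemia factor, the remaining PAR bZIP factor. Its values were 30.8, 28.1 and 23.8 CPM in WT and 34.9, 31.3 and 38.8 CPM in the libraries labelled ISM1-/-. The groups did not overlap, but WT replicate 1 and labelled replicate 2 nearly met. The log2 fold change of 0.34 (SE 0.107, 95% interval 0.11 to 0.58) did not pass, with an adjusted p of 0.140 from edgeR's quasi-likelihood test, whereas DESeq2's Wald test gave an adjusted p of 0.0476 at 0.35.

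*Nfil3* (ENSMUSG00000056749, chromosome 13, 52967209 to 52981073, reverse strand) encodes the D-box repressor E4BP4, which is also known as a factor that natural killer and innate lymphoid cells need to develop. It had the lowest CPM of the 9 genes, with raw counts of 221, 282 and 238 for WT and of 199, 174 and 171 for the labelled libraries. These are equal to 5.86, 6.79 and 6.15 CPM against 4.68, 4.58 and 4.38 CPM, so all labelled libraries lay below all WT libraries and close to each other. On the log2 scale *Nfil3* fell by 0.46 (SE 0.118, edgeR adjusted p = 0.0792), close to the threshold, and the call held in 1 of the 6 fits that left out a library, the one without labelled replicate 3 (adjusted p = 0.0976 against 0.1 to 0.287 in the others). Of 6 markers of natural killer and other lymphoid cells, 4 were called higher, against 1.38% of all genes. The other 2, *Ncr1* and *Cd3e*, were not called (log2 fold changes of 0.76 and 0.52). The 6 markers summed to 65.0 to 80.5 CPM in WT and 97.3 to 147 CPM in the labelled libraries.

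The level of the activators relative to their repressor was read in each library as a ratio of CPM. *Dbp* over *Nfil3* was 16.9, 13.2 and 11.2 in WT and 28.8, 35.6 and 27.2 in the libraries labelled ISM1-/-. *Tef* over *Nfil3* was 41.3, 38.6 and 40.8 in WT and 68.7, 72.8 and 85.1 in the labelled libraries. For *Hlf* over *Nfil3* the WT values were 5.26, 4.13 and 3.87 and the labelled ones 7.46, 6.82 and 8.85. In all 3 ratios the labelled libraries lay above every WT library; this follows from the values above and was not tested again.

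The repressor genes *Bhlhe40* (ENSMUSG00000030103, chromosome 6, 108660629 to 108666925, forward strand) and *Bhlhe41* (ENSMUSG00000030256, chromosome 6, 145858243 to 145865558, reverse strand), also called *Dec1* and *Dec2*, encode basic helix-loop-helix proteins that compete for the E-box. *Bhlhe40* had 65.9, 54.8 and 47.1 CPM in WT and 77.4, 76.0 and 59.2 CPM in the libraries labelled ISM1-/-. *Bhlhe41* had 24.2, 17.0 and 16.4 CPM in WT and 26.6, 25.2 and 21.9 CPM in the labelled libraries. In both genes WT replicate 1 was the highest WT library and labelled replicate 3 the lowest labelled one, and these libraries made the genotypes overlap. Neither passed, at log2 fold changes of 0.34 (SE 0.131, 95% interval 0.05 to 0.63, adjusted p = 0.231) and 0.36 (SE 0.141, 95% interval 0.04 to 0.67, adjusted p = 0.250) in edgeR's quasi-likelihood test.

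Without WT replicate 1 both were called, with log2 fold changes of 0.48 (adjusted p = 0.0939) for *Bhlhe40* and 0.56 (adjusted p = 0.0354) for *Bhlhe41* in the same edgeR test, and *Bhlhe40* was also called without labelled replicate 3, at 0.46 (adjusted p = 0.0737). Immediate early genes such as *Fos* and *Egr1*, which cells switch on quickly after a stimulus, summed to 594 CPM over 8 genes in WT replicate 1 against 378 and 326 CPM in the other WT libraries, and to 323, 488 and 328 CPM in the labelled libraries. None of these 8 genes was called in edgeR's quasi-likelihood test or by DESeq2, and 1 had an unadjusted p under 0.05. BHLHE40 and BHLHE41 are also known from alveolar macrophages, whose 8 markers summed to 651 to 728 CPM in WT and 599 to 691 CPM in the labelled libraries, with none called by either test and 1 at an unadjusted p under 0.05. The part of these cells and genes in the values of *Bhlhe40* and *Bhlhe41* was not tested.

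*Ciart* (ENSMUSG00000038550, chromosome 3, 95878503 to 95882251, reverse strand) encodes CHRONO, a repressor of the CLOCK and BMAL1 pair, and its promoter with 3 E-boxes is shown above. It had 12.6, 16.1 and 15.4 CPM in WT and 17.6, 19.4 and 20.5 CPM in the libraries labelled ISM1-/-. All labelled libraries lay above the WT libraries, of which replicate 1 was lowest. On the log2 scale *Ciart* rose by 0.38 (SE 0.105), and its adjusted p of 0.0992 in edgeR's quasi-likelihood test was just under the threshold. No fit that left out a library kept the call (adjusted p from 0.143 to 0.239). An antisense gene, *C920021L13Rik*, spans *Ciart* with a mean of 205 counts and a log2 fold change of 0.40 (edgeR adjusted p = 0.154), so reads of the pair may not have been told apart.

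*Usp2* (ENSMUSG00000032010, chromosome 9, 44067021 to 44095627, forward strand) encodes a ubiquitin-specific protease that acts on clock proteins, and like *Dbp* it is rhythmic in many tissues. It had 13.4, 13.8 and 14.7 CPM in WT and 9.33, 9.30 and 11.8 CPM in the libraries labelled ISM1-/-. The WT libraries were close together, and labelled replicate 3 lay between them and the other labelled libraries. On the log2 scale *Usp2* fell by 0.46 (SE 0.110, edgeR adjusted p = 0.0631), opposite in sign to *Dbp* and *Ciart*. The call was lost without WT replicate 2, WT replicate 3, labelled replicate 1 or labelled replicate 2 (adjusted p from 0.181 to 0.207), and without labelled replicate 3 the fall was larger, at −0.58 (adjusted p = 0.0119).

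*Wee1* (ENSMUSG00000031016, chromosome 7, 110122046 to 110143286, forward strand) encodes the kinase that holds cells before mitosis and is a known target of the clock. Its values were 11.5, 11.6 and 13.2 CPM in WT and 13.1, 12 and 14.7 CPM in the libraries labelled ISM1-/-. The genotypes overlapped, and the log2 fold change of 0.13 (SE 0.103, 95% interval −0.10 to 0.36, adjusted p = 0.603) did not pass edgeR's quasi-likelihood test. The interval leaves room for a rise of the size seen in *Hlf* or *Bhlhe40* but not for one of the size seen in *Dbp*.

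The 9 genes did not vary together within a genotype. Among the WT libraries, replicate 1 was the highest in *Dbp*, *Hlf*, *Bhlhe40* and *Bhlhe41* and the lowest in the other 5 genes. Among the libraries labelled ISM1-/-, replicate 3 was the highest in *Tef*, *Hlf*, *Ciart*, *Wee1* and *Usp2* and the lowest in the other 4.

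**Figure D3:**
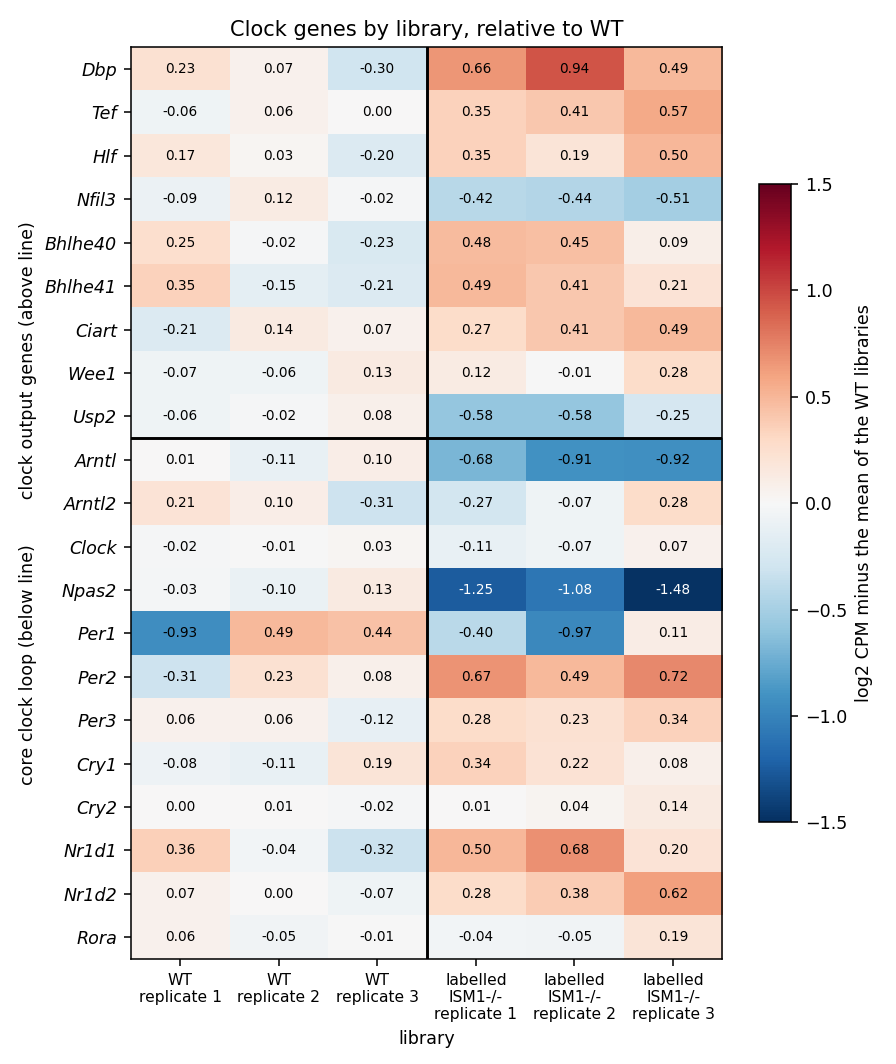
Log2 CPM (prior count 2) of each gene in each library minus the mean of the 3 WT libraries, for the 9 clock output genes above the line and the 12 tested genes of the core clock loop below it. *Dbp* stood at 0.66, 0.94 and 0.49 and *Npas2* at −1.25, −1.08 and −1.48 in the libraries labelled ISM1-/-.

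The core clock loop gave values for 12 of 13 listed genes, *Rorb* being too low to test. Of the 12, 3 were called higher and 2 lower (1.38% and 3.34% of all genes were), and their median log2 fold change was 0.05. The 2 lower genes, *Arntl* and *Npas2*, belong to the activating arm, whose gene *Clock* was not called. *Arntl*, the gene of BMAL1, had 24.6, 22.7 and 26.2 CPM in WT and 15.3, 13.0 and 12.9 CPM in the labelled libraries. It fell by 0.83 on the log2 scale (SE 0.0919) at an edgeR adjusted p of 0.00739. *Npas2*, a partner of BMAL1, had 7.61, 7.27 and 8.53 CPM in WT and 3.24, 3.66 and 2.77 CPM in the labelled libraries, which is 41.3% of the WT level (log2 fold change −1.27, SE 0.140, edgeR adjusted p = 0.00739).

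The alternative partner *Clock* was at −0.03 (95% interval −0.17 to 0.10). In the repressing arm, *Per2* was higher by 0.62 (adjusted p = 0.0363), *Nr1d2* by 0.43 (adjusted p = 0.0345) and *Per3* by 0.28 (adjusted p = 0.0577) on the log2 scale in edgeR's quasi-likelihood test. *Nr1d1* was at 0.45 (SE 0.162, edgeR adjusted p = 0.204) and had overlapping genotypes, with 290, 220 and 181 CPM in WT and 320, 362 and 260 CPM in the labelled libraries. *Per1* spread most, at 74.8, 199 and 194 CPM in WT and 108, 72.6 and 154 CPM in the labelled libraries, and was not called (edgeR adjusted p = 0.557). *Cry1*, *Cry2*, *Rora* and *Arntl2* were not called either, with log2 fold changes from −0.02 to 0.21. *Arntl* and *Npas2* stayed called whichever library was left out, and 3 to 6 core genes were called in those fits (0.806% to 7.91% of all genes were).

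**Figure D4:**
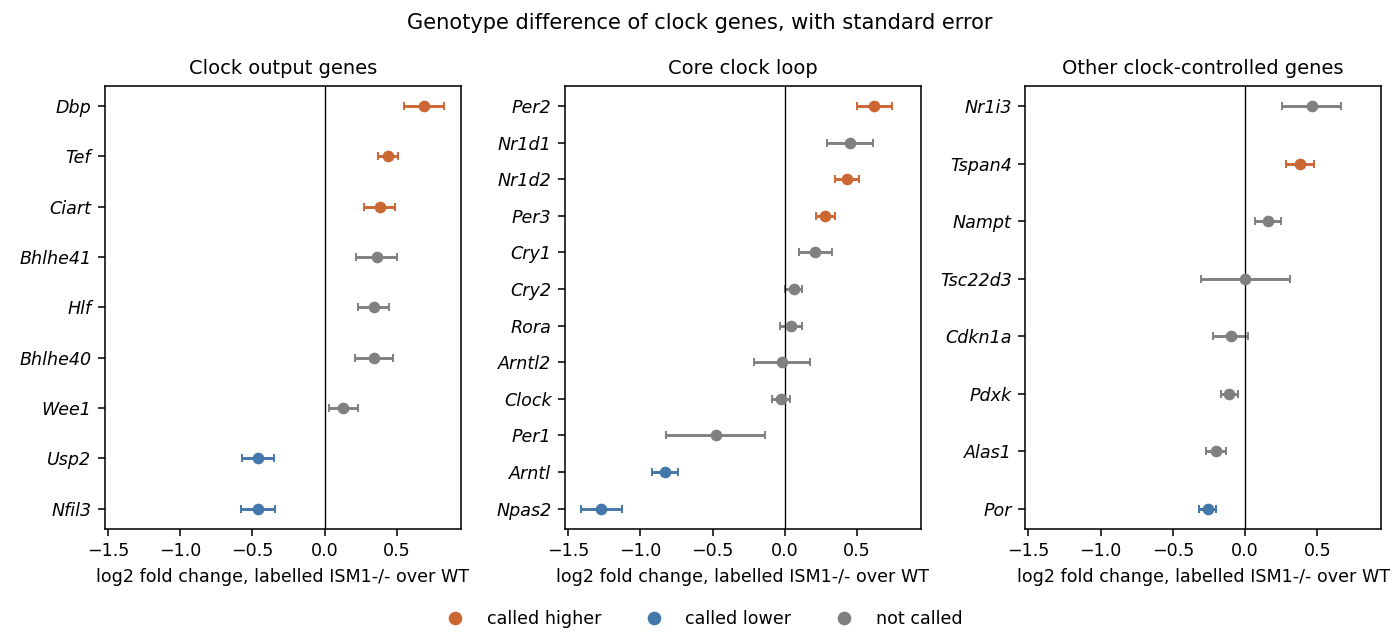
Log2 fold change with its standard error, libraries labelled ISM1-/- over WT, for the clock output genes, the core clock loop and other clock-controlled genes, coloured by the call at an adjusted p under 0.1. *Dbp* at 0.69 and *Per2* at 0.62 had the largest rises called in their panels, and *Npas2* at −1.27 the largest fall.

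The kinases, ubiquitin ligases and *Timeless*, which set the stability of PER and CRY or join them, were a list of 9 genes, none of which was called by edgeR's quasi-likelihood test or by DESeq2, and 1 had an unadjusted p under 0.05. Their log2 fold changes ran from −0.13 to 0.16. Of 8 other clock-controlled genes, 1 was called higher and 1 lower (1.38% and 3.34% of all genes were), and the median log2 fold change was −0.05. *Tspan4*, a tetraspanin gene, was at 39.8, 40.3 and 36.2 CPM in WT and 53.5, 55.0 and 43.2 CPM in the libraries labelled ISM1-/-, a log2 fold change of 0.38 (edgeR adjusted p = 0.0715). *Por*, the gene of cytochrome P450 oxidoreductase and a known PAR bZIP target in liver, was lower, at −0.26 (edgeR adjusted p = 0.0578). *Alas1* at −0.20 and *Pdxk* at −0.11, which the PAR bZIP factors are also known to drive, were not called (adjusted p = 0.178 and 0.432 from the same test), and *Nr1i3* at 0.46 was not called at 1.14 CPM in WT (adjusted p = 0.315).

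Glucocorticoids are known to induce several clock genes, *Per1* among them. Of 10 glucocorticoid-responsive genes, *Zbtb16* was called higher and *Mt1* lower (1.38% and 3.34% of all genes were), and the median log2 fold change was −0.05. *Tsc22d3*, which is also a clock-controlled gene, had equal means, at 101, 165 and 202 CPM in WT and 116, 111 and 242 CPM in the libraries labelled ISM1-/- (log2 fold change 0.00, 95% interval −0.69 to 0.69). Without labelled replicate 3, which was highest in this list, 5 of the 9 clock output genes were called (7.91% of all genes were), and *Bhlhe40* took the place of *Ciart*. Without WT replicate 1, which was highest in heart muscle genes, 6 were called (3.62% of all genes were), with *Bhlhe40*, *Bhlhe41* and *Hlf* (adjusted p = 0.0942) in and *Nfil3* and *Ciart* out. Fewer were called when another library was left out: *Dbp* and *Tef* without WT replicate 3 (1.83% of all genes were called), and *Tef* alone without WT replicate 2 (0.806%), labelled replicate 1 (1.33%) or labelled replicate 2 (1.40%). In each of these fits all 9 genes kept the sign of their log2 fold change.

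Markers of other tissues were read in the same libraries. All 8 adipocyte markers were called lower in the libraries labelled ISM1-/-, against 3.34% of all genes. They summed to 247 to 308 CPM in WT and 50.9 to 142 CPM in the labelled libraries. All 10 cardiomyocyte markers had a lower mean, with a median log2 fold change of −1.01. All 10 had an unadjusted p under 0.05 in edgeR's quasi-likelihood test, against 15.8% of all genes, and 1 was called by edgeR and none by DESeq2. All 5 smooth muscle markers had a lower mean, and 3 had an unadjusted p under 0.05 in edgeR's quasi-likelihood test. Of these 5, 1 was called lower by edgeR (*Cnn1*) and 2 by DESeq2 (*Acta2* and *Cnn1*). Of 5 erythroid markers none was called by either test or had an unadjusted p under 0.05. No marker of these lists was at 0 in any library. Their part in the differences of the clock output genes was not tested.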

How the data were processed

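RNA-Seq was done on 3 WT and 3 ISM1-/- lung samples, from poly-A enriched, strand-specific libraries sequenced as read pairs. Before deposit, reads were quality-filtered and aligned by the authors (STAR, GRCm38), who deposited raw counts per gene. The counting program, annotation release and strand setting are not given in the sources used here. The authors also deposited FPKM values, which were used only to order levels between genes.

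Columns were matched to samples through their titles. The count table was tested with edgeR 4.0.16 (R 4.3.3) by its quasi-likelihood F-test on genotype, with TMM factors and no covariate. The filter kept a gene that reached 0.5 CPM in any 1 library. A call means a Benjamini-Hochberg adjusted p below 0.1 among the 18689 genes tested. Standard errors and 95% intervals were derived from the same test. The study calls the replicates biological, but the sources used here do not say how many animals gave each sample, so p-values measure the spread between these samples. Counts of each pair of libraries differed by more than sampling noise in a chi-square comparison (5.61 to 31.2 per degree of freedom), so each library was used as 1 replicate. The labels do not say whether samples with the same replicate number were paired, and over all genes tested such samples did not deviate together. The genes named are *Ism1*, the 9 members, list members that were called or on which a count turns, markers beside a result, overlapping genes, and the 5 genes most like *Dbp*. Uncalled list members named beside these were chosen after their values were seen. The core clock list as first drawn up held 1 more gene, which is not reported here. The members and lists were chosen with earlier results of these data known. The test was tried on simulated counts. Alternatives were DESeq2 1.42.0, other scalings, filters and thresholds, the replicate number as a block, and the omission of each library. Promoter sequence came from RefSeq (GRCm38.p6) and exons from GENCODE M21.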

Additional observations from a re-analysis of the deposited data

How the results depend on the processing

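No log2 fold change of *Ism1* or of the 9 clock output genes changed sign under any alternative run. Of the 9 genes, 5 were called (4.72% of all genes were). With no filter on low counts 8 were called, against 5.11% of the 31946 genes then tested. At an adjusted p under 0.05, 2 were called, and with the 2-fold minimum none (0.567% of all genes). With each library left out, from 1 to 6 were called (0.806% to 7.91% of all genes). The core clock genes called were 5, and 1 with the 2-fold minimum and 3 to 6 with each library left out. Over all genes, 882 of 18689 were called, 1632 of 31946 with no filter, and 455 at an adjusted p under 0.05. With the 2-fold minimum 106 were called, with each library left out 150 to 1470, and by DESeq2 1285. Among other clock-controlled genes 2 were called, 0 at an adjusted p under 0.05 or with the 2-fold minimum, and 0 to 2 with each library left out; these are counts, and without WT replicate 1 both genes called were lower, so that *Tspan4* was not among them. Among glucocorticoid-responsive genes 2 were called, 4 with no filter, 1 with the 2-fold minimum and 1 to 2 with each library left out, and among immediate early genes, of which none was called, 1 was called with no filter and 0 to 1 with each library left out. RLE factors, library totals, and the filters of 0.5 CPM in at least 3 libraries or a mean above 2 CPM left the same 5 clock output genes called. The same alternatives for lists other than the core clock loop were added after seeing the data.

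By gene, DESeq2 called *Hlf* (0.35, adjusted p = 0.0476) and *Bhlhe40* (0.35, adjusted p = 0.0917). With no filter, edgeR's quasi-likelihood test called *Hlf* at 0.34 (adjusted p = 0.0250), *Bhlhe40* at 0.33 (adjusted p = 0.0313) and *Bhlhe41* at 0.35 (adjusted p = 0.0630). With each library left out, the log2 fold change ran from −0.26 to −0.15 for *Ism1*, 0.56 to 0.81 for *Dbp*, 0.38 to 0.49 for *Tef*, 0.25 to 0.43 for *Hlf*, −0.51 to −0.40 for *Nfil3*, 0.23 to 0.48 for *Bhlhe40*, 0.25 to 0.56 for *Bhlhe41*, 0.29 to 0.46 for *Ciart*, 0.05 to 0.20 for *Wee1* and −0.58 to −0.40 for *Usp2*; *Ism1* was called without labelled replicate 3 (adjusted p = 0.0356). These fits have fewer samples. The cause of the other changes was not tested.

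Over all genes tested, libraries with the same replicate number did not deviate together. The correlation of deviations from the genotype means was −0.040, 0.031 and 0.001 for the 3 numbers, and no WT library correlated best with its own number. In *Bhlhe40* and *Bhlhe41*, however, the libraries of both genotypes fell in the order of their replicate numbers. With the replicate number as a block, 1105 genes were called, 6 of the clock output genes and 4 of the glucocorticoid-responsive genes; *Bhlhe40* (0.34, adjusted p = 0.0307) and *Bhlhe41* (0.37, adjusted p = 0.0679) were called and *Nfil3* (−0.46, adjusted p = 0.106) was not.

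Levels in WT computed from counts and the gene length column, an alternative added after seeing the data, were 28.8 for *Dbp*, 32.1 for *Tef*, 4.14 for *Hlf*, 11.9 for *Bhlhe40*, 2.86 for *Bhlhe41*, 6.52 for *Ciart* and 2.91 for *Usp2*, below their deposited FPKM because that length is longer; *Nfil3* (3.10) and *Wee1* (3.55) then stood above *Usp2* and *Bhlhe41*.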

Other observations

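The log2 CPM of *Dbp* was set beside that of 12493 genes (mean of 5 CPM or more). The 5 whose values followed it most closely over the 6 libraries were *4931406P16Rik* (Pearson r = 0.999), *Fmnl3* (0.996), *Adam12* (0.991), *Ushbp1* (0.987) and *Smad7* (0.987). *Fmnl3* encodes a formin, which assembles actin filaments, *Adam12* a membrane metalloproteinase and *Smad7* an inhibitor of TGF-beta signalling. *Smad7* was called higher in the libraries labelled ISM1-/-, with means of 98.5 CPM in WT and 130 CPM in the labelled libraries (log2 fold change 0.40, edgeR adjusted p = 0.0719), and the other 4 were not called (log2 fold changes from 0.13 to 0.37). None of the 5 belongs to the clock lists. Of those lists, *Nr1d1* (0.942) and *Bhlhe40* (0.906) followed *Dbp* most closely, and *Usp2* (−0.941) and *Arntl* (−0.882) ran most opposite to it. These are descriptions over 6 libraries in which *Dbp* is apart by genotype, so the genotype difference enters each of them. The 5 genes were also picked as the highest of 12493, and such a pick over 6 libraries gives high values of r by itself.

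*Wee1* did not follow *Dbp* (0.036). *Ciart* over *Usp2*, as a ratio of CPM, was 0.944, 1.17 and 1.04 in WT and 1.89, 2.09 and 1.75 in the libraries labelled ISM1-/-. The lack of overlap follows from *Ciart* lying higher and *Usp2* lower in every labelled library, and was not tested again.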
